A study of Mus musculus with 6 samples.

Results

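The Slc25 genes encode the mitochondrial carriers, the largest family of proteins that move small molecules across the inner mitochondrial membrane. Members were taken as every gene on the array whose symbol starts with Slc25a, apart from Slc25a15 and Slc25a20, which were left out. Each was read from a probe set paired with exactly 1 gene symbol, and from the brightest one where a gene had several. This gave 44 genes among the 19938 tested. They were measured in total RNA of whole ileum, the last stretch of the small intestine, on Affymetrix mouse Gene ST arrays with 1 array per mouse. The 3 control mice carried Villin-CreERT2, a Cre recombinase that tamoxifen activates and that the Villin promoter expresses in intestinal epithelium. The 3 mice labelled Gata6 KO carried the same Cre and floxed Gata6. This gene encodes a zinc finger protein that controls transcription, and floxed DNA is flanked by sites at which Cre removes it. All 6 mice, controls included, were given tamoxifen (100 mg/ml) on 5 days in a row at 6 to 8 weeks of age, and their ileum was taken 28 days later, at 10 to 12 weeks.

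Mitochondrial carriers share a fold of repeated membrane-spanning units and mostly work as exchangers, bringing 1 substrate in while another leaves. They supply mitochondria with ADP, phosphate, amino acids, carboxylates, cofactors and metals, and they return ATP and biosynthetic precursors to the cytosol. In absorptive cells of the small intestine they serve the oxidation of glutamine and glutamate, a main fuel of that tissue, and the citrate export and redox shuttles that support lipid and sugar handling.

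The targeted gene does not bear out the labels. Gata6 read 6.31, 6.33 and 6.50 on the control arrays and 6.93, 6.81 and 6.86 on those labelled Gata6 KO, all as log2 signal, so it was 0.49 higher on the log2 scale (SE 0.08, n = 3 per group, limma adjusted p = 0.0162). Leaving out control replicate 1 ended the call (0.0501), as did leaving out Gata6 KO replicates 1, 2 or 3 (0.0584, 0.0573 and 0.0623). Where its probe set lies relative to the floxed part was not stated by any source used here, and a probe set outside that part checks nothing. The RNA was of whole ileum and the Cre is expressed in epithelium, so any Gata6 RNA of other cells is part of this signal. The part of those cells was not tested. Directions below are therefore those of the arrays labelled Gata6 KO against control. Arrays of 1 group correlated at 0.987 to 0.992 over all probe sets and arrays of different groups at 0.980 to 0.984. Xist, made from the silenced X chromosome of female cells, was at 2.31 in control replicate 3 and at 7.39 to 7.81 elsewhere, so that array's signal is that of a male and the others' of females. Sex was not modelled, and 4 carriers (Slc25a5, Slc25a14, Slc25a43 and Slc25a53) lie on the X chromosome, none of which passed. The number of arrays limits the precision.

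The comparison asked which carrier transcripts differed between the groups 28 days after tamoxifen. On the KO-labelled arrays, 5 of the 44 carriers rose and 3 fell at a limma adjusted p under 0.05, adjusted over all genes. Those that rose were Slc25a4, an ADP/ATP carrier, Slc25a12 and Slc25a13, the aspartate/glutamate carriers, Slc25a35, a relative of the yeast oxaloacetate carrier, and Slc25a40, a relative of the glutathione carrier. Those that fell were Slc25a22, a glutamate carrier, Slc25a25, an ATP-Mg/phosphate carrier, and Slc25a48, which has been linked to choline import. The 8 genes that passed made up 18.2% of the family, beside 8.24% of all genes tested. The family was chosen with earlier results of these data known. In a fit of genes above the array median alone, 7 of 33 carriers rose and 3 fell, beside 1328 and 689 of all 11966. The counts of 5 that rose and 3 that fell went to 1 and 1 without Gata6 KO replicate 2 or 3, to 3 and 1 without Gata6 KO replicate 1 or control replicate 3, to 4 and 1 without control replicate 2 and to 6 and 2 without control replicate 1. They were 1 and 0 without moderation of the variances, and 0 and 0 with the mean of smooth muscle markers as a covariate. Over all genes the counts of 995 and 648 went to 168 and 106 without moderation and to 50 and 56 with the covariate. With 1 array left out, 320 to 806 of all genes rose and 277 to 597 fell. Calls were thus lost over all genes and not in the carriers alone. The fit without these changes gave a share of 11.4% against 4.99% for genes that rose and 6.82% against 3.25% for genes that fell. The median log2 fold change was -0.01 in the family and -0.0043 over all genes, so the family did not shift one way. The median size of a log2 fold change, whatever its sign, was 0.17 among the carriers and 0.14 over all genes. The groups did not overlap for 20 carriers, 45.5% beside 29.3% of all genes. KO-labelled arrays lay above the controls for 13 of the 44 carriers, beside 3342 (16.8%) of all 19938 genes. They lay below for 7 of the 44, beside 2505 (12.6%). With each array centred on its median the same 8 passed and Slc25a16 and Slc25a17 also rose. That scaling moved the split over all genes from 995 higher and 648 lower to 1562 and 565.

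**Figure D1:**
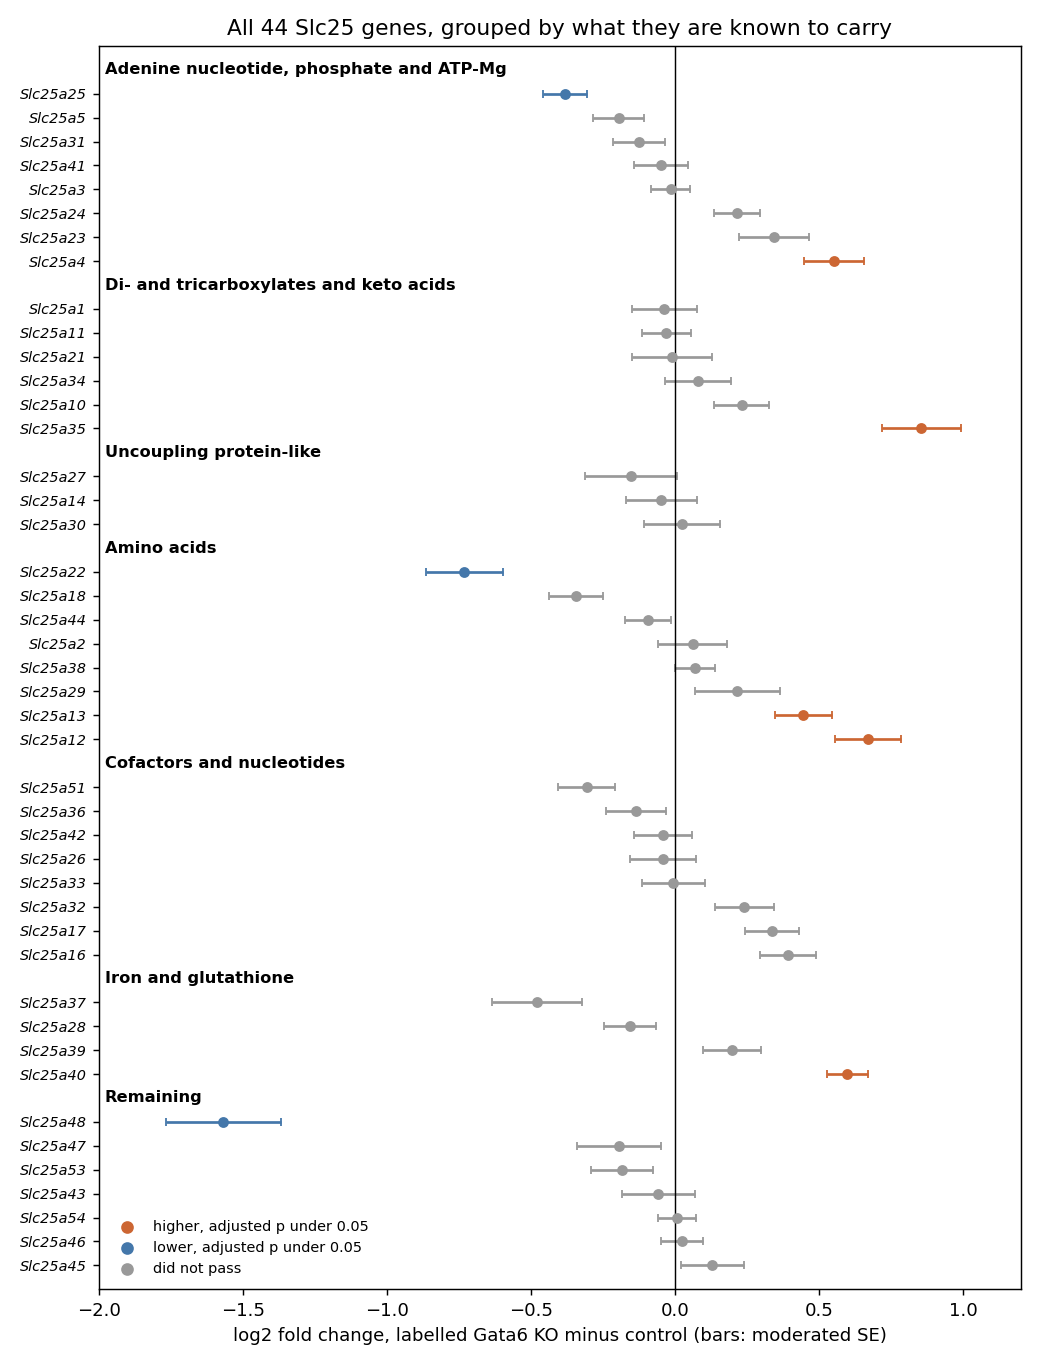
Log2 fold change of each of the 44 carriers, KO-labelled minus control, grouped by known substrate, with moderated standard errors (SE) as bars. Values ran from -1.57 for Slc25a48 to 0.855 for Slc25a35, and the 8 coloured genes are those with a limma adjusted p under 0.05.

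The largest difference in the family was in Slc25a48. Its log2 signal in the controls was 5.54, 5.86 and 6.05, and 4.12, 3.98 and 4.65 on the KO-labelled arrays. Every KO-labelled array was below every control. It fell by 1.57 on the log2 scale (SE 0.20), 2.96-fold, with a limma adjusted p of 0.00523. Slc25a48 and Slc25a40 kept the call whichever of the 6 arrays was left out. Slc25a48 was the 1 carrier of 44 with a change of over 1 on the log2 scale, a size reached by 406 of the 19938 genes.

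Slc25a40 stands beside Slc25a39 among the carriers tied to mitochondrial glutathione, the main thiol antioxidant. It read 4.21, 4.18 and 4.13 in the controls against 4.70, 4.82 and 4.79 on the KO-labelled arrays. The groups lay well apart relative to their spread, and the log2 fold change was 0.60 (SE 0.07), 1.51-fold higher, with a limma adjusted p of 0.00436. A dimmer probe set of the same gene, with a mean log2 signal of 3.02, gave 0.63 (SE 0.13, limma adjusted p = 0.0316 in the fit of every probe set). That mean lies below the median of all deposited values (3.40). Slc25a40 alone also passed without moderation of the variances (0.0330). Slc25a39, which imports glutathione and is needed for iron-sulfur proteins, read 8.28, 7.94 and 8.17 against 8.30, 8.35 and 8.33, and did not pass (0.20, SE 0.10, limma adjusted p = 0.274). The mitoferrins, which bring iron in for heme and iron-sulfur clusters, had lower means without passing. Slc25a37, mitoferrin-1, read 5.32, 5.84 and 5.23 in the controls and 5.02, 4.96 and 4.96 on the KO-labelled arrays (limma adjusted p = 0.116), with control replicate 2 the highest array. Slc25a28, mitoferrin-2, was at a difference of -0.16 on the log2 scale (SE 0.09, limma adjusted p = 0.337).

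Among carriers of amino acids 2 of 8 rose and 1 fell, 25% and 12.5%, beside 4.99% and 3.25% of all genes. The group is small, and its shares are given for scale only. The aspartate/glutamate carriers Slc25a12 (aralar) and Slc25a13 (citrin) export aspartate from mitochondria in exchange for glutamate and form part of the malate-aspartate shuttle. Slc25a12 read 6.27, 6.12 and 5.86 in the controls and 6.71, 6.75 and 6.80 on the KO-labelled arrays, and Slc25a13 read 6.32, 6.15 and 6.19 against 6.50, 6.76 and 6.74. For both genes all KO-labelled arrays lay above all controls. Slc25a12 rose by a log2 fold change of 0.67 with SE 0.11 (limma adjusted p = 0.0158) and Slc25a13 by 0.45 (SE 0.10, limma adjusted p = 0.0381), 1.59-fold and 1.36-fold. Slc25a12 lost the call without Gata6 KO replicates 1, 2 or 3 (0.0545, 0.0713 and 0.0666). Slc25a13 lost it without control replicates 1, 2 or 3 (0.0618, 0.0820 and 0.124) or Gata6 KO replicates 2 or 3 (0.142 and 0.125).

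Slc25a22, which carries glutamate into mitochondria together with a proton, went the other way. Its log2 signal in the controls was 7.14, 7.48 and 7.64, and 6.72, 6.60 and 6.75 on the KO-labelled arrays. Control replicate 1 was the lowest control and still lay above the highest KO-labelled array. Slc25a22 fell by 0.73 on the log2 scale (SE 0.13), 1.66-fold, with a limma adjusted p of 0.0198. It lost the call when control replicates 2 or 3 (0.0568 and 0.0622) were left out, or Gata6 KO replicates 1, 2 or 3 (0.0693, 0.0927 and 0.0639). Slc25a18, the other glutamate carrier, read 2.74, 2.61 and 2.73 against 2.50, 2.24 and 2.31, with no overlap but below the median of all deposited values (3.40), and did not pass (limma adjusted p = 0.0716). The remaining amino acid carriers did not pass. Slc25a29, which carries basic amino acids, Slc25a38, the glycine carrier of heme synthesis, Slc25a44, which carries branched-chain amino acids, and the ornithine carrier Slc25a2 had log2 fold changes of 0.22, 0.07, -0.09 and 0.06. The mean signal of Slc25a2, 1.66, lay below the array median.

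Gata6 belongs to a family of factors that bind DNA at a motif with the core GATA, so the start regions of carriers that passed were read for its letters. RefSeq start regions of build GRCm38.p6, each 250 bases before to 50 bases after a transcript start, were found for 34 of the 44 carriers and for 7 of the 8 that passed. The letters AGATAA occurred on either strand in 3 of the carriers' 43 windows (Slc25a5, Slc25a22 and Slc25a53), 6.98%, beside 11.2% of all 32851 windows. The letters TGATAA, searched after the first result was seen, also occurred in 6.98% of the carriers' windows (in Slc25a12 and Slc25a23) beside 9.05% of all. No window of a carrier held both. Of carriers that passed, Slc25a22 held the first and Slc25a12 the second. Their windows are shown with the match in capitals, read on the opposite strand (TTATCT and TTATCA), together with those of Slc25a48 and Slc25a40, the carriers that passed whichever array was left out, which hold neither. All run 5′ to 3′ on the strand of the gene.
Slc25a22, chr7:141435326-141435625, minus strand: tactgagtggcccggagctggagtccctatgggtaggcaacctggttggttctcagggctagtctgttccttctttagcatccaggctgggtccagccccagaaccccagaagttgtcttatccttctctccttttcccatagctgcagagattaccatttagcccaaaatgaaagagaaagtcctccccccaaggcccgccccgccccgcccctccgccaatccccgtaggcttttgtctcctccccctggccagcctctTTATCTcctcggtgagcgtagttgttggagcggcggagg
Slc25a12, chr2:71367706-71368005, minus strand: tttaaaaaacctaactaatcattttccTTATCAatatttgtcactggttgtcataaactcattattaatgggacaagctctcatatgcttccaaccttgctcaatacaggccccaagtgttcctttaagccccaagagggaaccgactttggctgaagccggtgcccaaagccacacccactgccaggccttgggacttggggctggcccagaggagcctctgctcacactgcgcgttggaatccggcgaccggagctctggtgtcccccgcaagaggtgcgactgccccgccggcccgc
Slc25a48, chr13:56438105-56438404, plus strand: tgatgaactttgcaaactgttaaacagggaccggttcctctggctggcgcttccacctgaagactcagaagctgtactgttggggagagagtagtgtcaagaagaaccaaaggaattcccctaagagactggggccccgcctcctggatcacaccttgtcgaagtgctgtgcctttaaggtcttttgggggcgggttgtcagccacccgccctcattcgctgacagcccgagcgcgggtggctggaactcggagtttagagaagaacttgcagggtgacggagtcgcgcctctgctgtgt
Slc25a40, chr5:8422588-8422887, plus strand: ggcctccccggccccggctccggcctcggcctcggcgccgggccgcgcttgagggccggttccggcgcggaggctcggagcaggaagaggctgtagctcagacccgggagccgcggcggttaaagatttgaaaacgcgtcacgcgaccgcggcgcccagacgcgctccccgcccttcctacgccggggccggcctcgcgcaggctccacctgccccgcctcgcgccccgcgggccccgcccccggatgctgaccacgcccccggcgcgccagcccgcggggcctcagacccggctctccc
The match of Slc25a22 starts 12 bases into the transcript and lies in 1 of its 3 windows. That of Slc25a12 starts 223 bases before the transcript start. Slc25a22 fell and Slc25a12 rose, so the 2 windows with a match belong to genes that moved in opposite directions. A match of letters is a description and not a binding site.

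**Figure D2:**
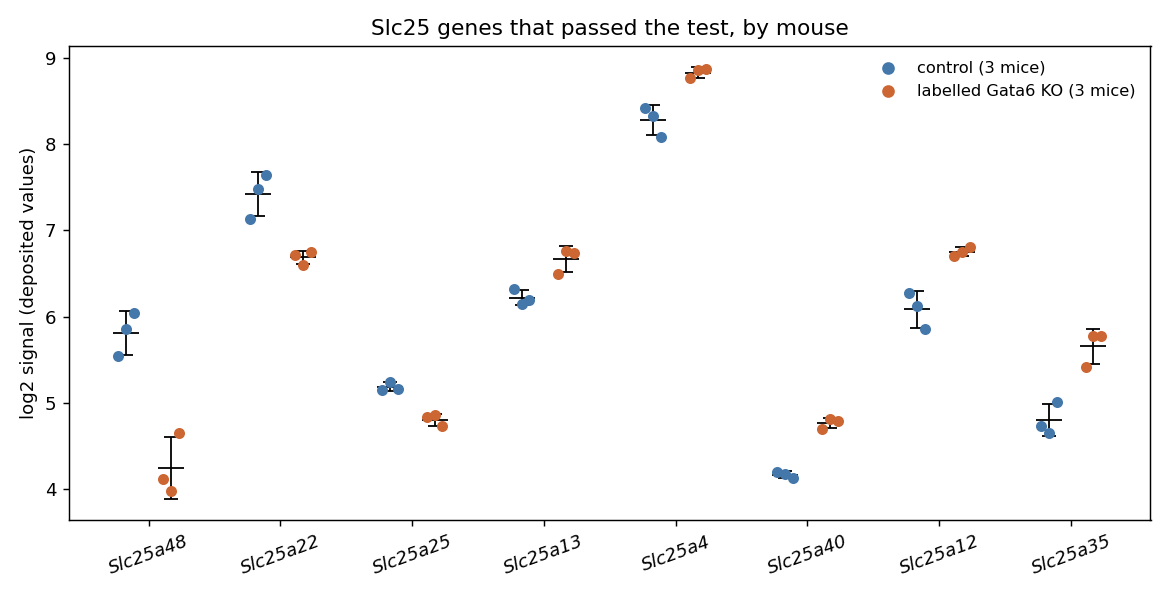
Log2 signal of the 8 carriers that passed, by mouse, with the mean and SD of each group (3 control mice, 3 mice labelled Gata6 KO). In each of them the 3 KO-labelled arrays lie wholly above or wholly below the 3 controls, and Slc25a48 has the widest gap.

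Carriers of adenine nucleotides and phosphate connect ATP synthase to the cytosol. Slc25a4 (Ant1), the ADP/ATP carrier typical of heart and muscle, read 8.42, 8.33 and 8.08 in the controls and 8.76, 8.86 and 8.87 on the KO-labelled arrays. The KO-labelled arrays sat close together above all controls, of which replicate 3 was the lowest. Slc25a4 rose by a log2 fold change of 0.55 (SE 0.10), 1.47-fold, with a limma adjusted p of 0.0224. It lost the call when control replicate 3 (0.0524) was left out, or Gata6 KO replicates 1, 2 or 3 (0.0607, 0.0966 and 0.0828).

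Smooth muscle markers moved in the same direction as Slc25a4. All 10 had a higher mean on the KO-labelled arrays, by a median log2 difference of 0.35. Of the 10, 1 (Tagln) passed, 10% beside 8.24% of all genes. An unadjusted p under 0.05 was found for 8 (80%), beside 24.7% of all genes. The groups did not overlap for 6 (60%), beside 29.3%. Tagln lost the call without control replicates 1 or 3 (0.111 and 0.128) and without Gata6 KO replicates 2 or 3 (0.142 and 0.125). Their summed signal on the linear scale was 3386 to 3853 in the controls and 3951 to 4966 on the KO-labelled arrays, and none had a mean below the array median. With their mean as a covariate the log2 fold change of Slc25a4 was 0.46 (SE 0.18) and no carrier passed. Among the 8, limma adjusted p ran from 0.117 for Slc25a48 to 0.537 for Slc25a13. Over all genes 50 rose and 56 fell with the covariate, beside 995 and 648 without it. In that fit the fold changes of the 8 kept their sign, from -1.74 for Slc25a48 to 0.63 for Slc25a35, and each SE was larger. In RNA of whole tissue, a change in the number of cells of a type and in RNA per cell cannot be told apart. The covariate comes from the same arrays, and the markers' summed signal was higher on every KO-labelled array than on any control. The fit with it can therefore not separate muscle from group. The part of muscle in these differences was not tested.

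Slc25a5 (Ant2), the ADP/ATP carrier of proliferating cells, did not follow Slc25a4. It read 10.42, 10.26 and 10.37 in the controls and 10.03, 10.19 and 10.24 on the KO-labelled arrays. The KO-labelled arrays were below the controls by a narrow margin, and the log2 fold change of -0.195 (SE 0.09) did not pass (limma adjusted p = 0.226). The other 2 probe sets of Slc25a5 gave -0.21 and -0.18 and did not pass either. Slc25a3, the phosphate carrier that feeds ATP synthase, read 8.29, 8.33 and 8.35 against 8.33, 8.27 and 8.32, with groups that overlapped (limma adjusted p = 0.922). Slc25a31, the ADP/ATP carrier of male germ cells, had a mean signal of 0.69, below the array median.

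The ATP-Mg/phosphate carriers adjust the adenine nucleotide pool of mitochondria and are regulated by calcium. Slc25a25 read 5.15, 5.25 and 5.17 in the controls and 4.84, 4.86 and 4.73 on the KO-labelled arrays. Spread within each group was small and the groups did not overlap. It fell by 0.38 on the log2 scale (SE 0.08), 1.30-fold, with a limma adjusted p of 0.0264. That call was lost without any 1 of the arrays, at 0.0580, 0.0568 and 0.0798 without control replicates 1, 2 and 3 and 0.0680, 0.0785 and 0.0951 without Gata6 KO replicates 1, 2 and 3. Its relatives Slc25a24 and Slc25a23 had higher means. Slc25a24 read 9.01, 9.20 and 9.16 against 9.36, 9.30 and 9.35 (limma adjusted p = 0.156), and Slc25a23 read 4.66, 4.66 and 4.24 against 4.85, 4.89 and 4.86 (0.142). The groups of both genes did not overlap, but neither passed. Slc25a41, of the same branch, had a mean of 2.19 and a log2 fold change of -0.05.

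Among carriers of carboxylates and keto acids, 1 of 6 rose and none fell, 16.7% and 0%, beside 4.99% and 3.25% of all genes. This group is small too. Slc25a35 read 4.73, 4.66 and 5.01 in the controls and 5.42, 5.77 and 5.78 on the KO-labelled arrays. The lowest KO-labelled array lay above the highest control. The log2 fold change was 0.855 (SE 0.14), 1.81-fold, the largest increase in the family, with a limma adjusted p of 0.0126. It lost the call without Gata6 KO replicates 2 or 3 (0.0651 and 0.0561). Its closest relative, Slc25a34, read 3.72, 3.37 and 3.54 against 3.49, 3.74 and 3.64, with groups that overlapped (limma adjusted p = 0.715).

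The better known carboxylate carriers did not pass. Slc25a1, which exports citrate for fatty acid and sterol synthesis, read 8.08, 7.67 and 7.96 in the controls and 7.82, 7.88 and 7.89 on the KO-labelled arrays, within the range of the controls (limma adjusted p = 0.874). Slc25a10, the dicarboxylate carrier, read 7.53, 7.36 and 7.46 against 7.54, 7.80 and 7.71, just above the controls (0.23, SE 0.10, limma adjusted p = 0.191). Slc25a11, the oxoglutarate/malate carrier and partner of the aspartate/glutamate carriers in the malate-aspartate shuttle, read 6.86, 6.64 and 6.70 against 6.74, 6.65 and 6.73 (limma adjusted p = 0.863). So of the shuttle's carriers Slc25a12 and Slc25a13 rose, and the groups of Slc25a11 overlapped. Slc25a21, the oxodicarboxylate carrier, had a mean of 0.93, below the array median.

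None of the 8 carriers of cofactors and nucleotides passed in limma, beside 8.24% of all genes. At that share a group of 8 can hold none. Of the 8, 4 (50%) had an unadjusted p under 0.05, beside 24.7% of all genes. Slc25a16, tied to coenzyme A, was nearest, at 5.22, 4.93 and 4.99 in the controls and 5.51, 5.40 and 5.40 on the KO-labelled arrays, a log2 fold change of 0.39 with SE 0.10 (limma adjusted p = 0.0522). Slc25a17, a carrier of coenzyme A and nucleotides in peroxisomes, read 6.51, 6.26 and 6.26 against 6.66, 6.63 and 6.74 (0.34, SE 0.09, limma adjusted p = 0.0740). For both genes every KO-labelled array was above every control. In the other direction Slc25a51, the NAD carrier, read 6.40, 6.69 and 6.53 against 6.33, 6.21 and 6.15 (-0.31, SE 0.10, limma adjusted p = 0.110). Slc25a32, which carries folate or FAD, had a log2 fold change of 0.24 (limma adjusted p = 0.199). Slc25a42, the coenzyme A carrier, Slc25a26, the S-adenosylmethionine carrier, and the pyrimidine nucleotide carriers Slc25a33 and Slc25a36 lay between -0.14 and -0.0060.

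The uncoupling protein relatives Slc25a14, Slc25a27 and Slc25a30, which move protons or anions in brain and other tissues, had log2 fold changes of -0.05, -0.15 and 0.02, none of which passed. Slc25a14 is listed at 3.074 on all 3 KO-labelled arrays. Values equal to the last digit on the 3 KO-labelled arrays occurred for 127 genes, and on the 3 controls for 156. Of the remaining carriers beside Slc25a48, none passed. Slc25a46, which sits in the outer membrane and acts on mitochondrial shape, had a log2 fold change of 0.02, and the liver carrier Slc25a47 of -0.19. Slc25a43, Slc25a45, Slc25a53 and Slc25a54 lay between -0.18 and 0.13. Of the 44 carriers, 11 had a mean below the median of all deposited values, and none of those passed.

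Related carriers were also compared with each other, as the difference of their log2 signals within each array, in 12 pairs. In 8 of the 12 pairs the differences of the 2 groups did not overlap. Of all 946 pairs that the 44 carriers can form, this held for 456 (48.2%). A carrier that passed on its own belongs to 5 of these 8, so their separation in part restates its call. The level of a difference also depends on the probe sets, so only its shift is described. Each of these had an exact two-sided permutation p of 0.1, the smallest that 3 arrays against 3 allow, and 0.15 after Benjamini-Hochberg adjustment over the pairs, so no pair could pass. The largest shifts were in the ADP/ATP carriers and in Slc25a34 and Slc25a35. Slc25a4 minus Slc25a5 lay between -2.29 and -1.93 in the controls and was -1.27, -1.33 and -1.38 on the KO-labelled arrays, a shift of 0.75 (SE 0.11). Slc25a34 minus Slc25a35 shifted by -0.78 (SE 0.15). Slc25a24 minus Slc25a25 shifted by 0.60 (SE 0.07), with 3.86, 3.95 and 3.99 in the controls against 4.53, 4.44 and 4.63. Slc25a16 minus Slc25a42 shifted by 0.44 (SE 0.13), Slc25a39 minus Slc25a40 by -0.40 (SE 0.10) and Slc25a10 minus Slc25a11 by 0.26 (SE 0.11).

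The aspartate/glutamate carriers shifted less against each other. Slc25a12 minus Slc25a13 was -0.05, -0.03 and -0.33 in the controls and 0.21, -0.01 and 0.06 on the KO-labelled arrays, a shift of 0.22 (SE 0.12) with groups that did not quite touch. Slc25a33 minus Slc25a36 shifted by 0.13 (SE 0.06), with Slc25a33 below the array median. In the other 4 pairs the groups overlapped. The mitoferrins, Slc25a28 minus Slc25a37, shifted by 0.32 (SE 0.23), and the glutamate carriers, Slc25a18 minus Slc25a22, by 0.39 (SE 0.18). Slc25a23 minus Slc25a24 shifted by 0.13 (SE 0.17) and Slc25a14 minus Slc25a30 by -0.07 (SE 0.14).

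**Figure D3:**
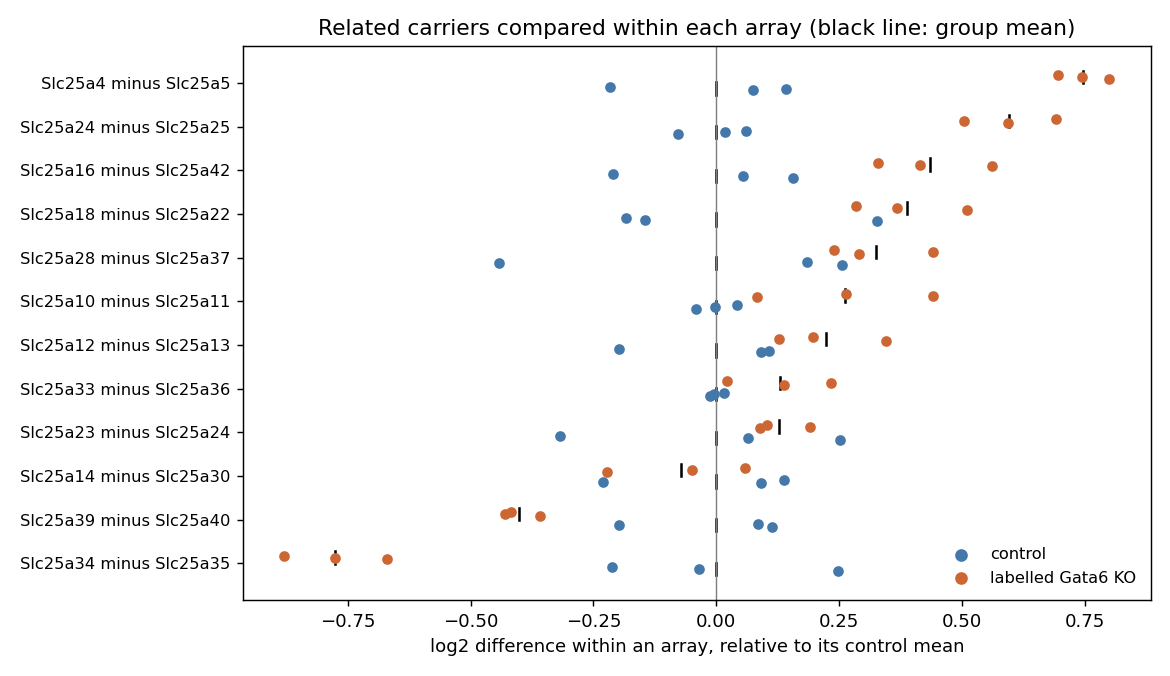
Difference of the log2 signals of 2 related carriers within each array, drawn relative to the mean of the controls, for 12 pairs. Black lines are group means. The difference shifted by 0.75 for Slc25a4 minus Slc25a5 and by -0.78 for Slc25a34 minus Slc25a35, while that of Slc25a23 minus Slc25a24 overlapped between groups.

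Enzymes that make or use what the carriers move differed in both directions. Of 34 measured, 7 rose, 5 fell and 22 did not pass (35.3% passed, beside 8.24% of all genes), and the median log2 fold change was 0.05. The list was chosen with earlier results of these data known. Of its 34 genes 2 had a mean below the array median, beside 7972 of all 19938. In a fit of genes above that median alone, 7 of the list rose and 6 fell, beside 1328 and 689 of all 11966. None of the 12 passed with the smooth muscle covariate or without moderation. Over all genes 50 rose and 56 fell with that covariate, and 168 rose and 106 fell without moderation. All 10 smooth muscle markers and 5 of 6 fat markers had a higher mean on the KO-labelled arrays, with medians of 0.35 and 0.64. Of them 1 and 0 passed, while 8 (80%) and 2 (33.3%) had an unadjusted p under 0.05, beside 24.7% of all genes. The part of fat in the counts of enzymes was not tested. Gpd1, the cytosolic enzyme of the glycerol phosphate shuttle, had the smallest p. Its log2 signal in the controls was 8.10, 7.85 and 8.16, and 6.71, 6.69 and 7.18 on the KO-labelled arrays, all lower than the controls, and it fell by 1.18 (SE 0.15, limma adjusted p = 0.00584). Gsr, which reduces oxidised glutathione, fell by 1.00 (SE 0.13) and the mitochondrial malic enzyme Me2 by 0.73 (SE 0.10). Gpd1, Gsr and Me2 kept the call whichever array was left out and lost it without moderation (0.0802, 0.0768 and 0.0694) and with the smooth muscle covariate (0.147, 0.203 and 0.143). Shmt2, the mitochondrial enzyme that splits serine, fell by 0.52 (SE 0.08) and lost the call without Gata6 KO replicate 2 (0.0507).

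The cytosolic malic enzyme Me1 rose by 1.06 (SE 0.16) and lost the call when control replicate 3 (0.0524) was left out, or Gata6 KO replicates 1 or 3 (0.0537 and 0.0526). Gclc, which makes the first step of glutathione synthesis, rose by 0.81 (SE 0.15), and its partner subunit Gclm by 0.51 (SE 0.10). Gss, also an enzyme of glutathione synthesis, did not pass (0.30, SE 0.13, limma adjusted p = 0.198). Gclc lost the call when control replicates 2 or 3 (0.0566 and 0.0651) were left out, or Gata6 KO replicates 2 or 3 (0.0939 and 0.0783), and Gclm without the same arrays (0.0525, 0.0856, 0.0966 and 0.0851). The count of 7 that rose went to 0 when the third replicate of either group was left out, to 1 without the second of either, and to 2 without Gata6 KO replicate 1, and the count of 5 that fell went to 3 without Gata6 KO replicate 2. The enzymes of the malate-aspartate shuttle, Mdh1, Mdh2, Got1 and Got2, did not pass beside Slc25a12 and Slc25a13. Their log2 fold changes were -0.25, -0.06, -0.25 and 0.30, with limma adjusted p from 0.121 to 0.794.

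Of 31 other genes of mitochondrial transport, 1 rose, 2 fell and 28 did not pass. The share that passed, 9.68%, was near the 8.24% of all genes, with a median log2 fold change of -0.05. Vdac3, an outer membrane channel, rose by 0.79 (SE 0.09, limma adjusted p = 0.00412), from 7.70, 7.72 and 7.63 to 8.30, 8.56 and 8.55. Sfxn1, the serine carrier of the inner membrane, fell by 0.98 (SE 0.13, limma adjusted p = 0.00625), from 7.80, 8.20 and 8.07 to 6.96, 6.95 and 7.23. Abcb10, an inner membrane transporter needed for heme synthesis, fell by 0.51 (SE 0.07). All 3 kept the call whichever array was left out. With the smooth muscle covariate none of them passed (0.146, 0.0947 and 0.222 for Vdac3, Sfxn1 and Abcb10), and without moderation Abcb10 alone did (0.0384, beside 0.0551 and 0.0775 for Vdac3 and Sfxn1). Sfxn5, Sfxn3 and the carrier-like Mtch2 had the next smallest p, with log2 fold changes of 0.58, 0.38 and -0.25 that did not pass. Import proteins that receive and insert carriers, such as Tomm70a, Timm9, Timm10 and Timm22, did not pass either.

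Of 29 genes of mitochondrial upkeep, 1 fell and none rose in limma (8, or 27.6%, had an unadjusted p under 0.05 in either direction, beside 24.7% of all genes), and the median was 0.04. The share that passed, 3.45%, was below the 8.24% of all genes. Esrra, a nuclear receptor that drives mitochondrial genes, fell by 0.35 (SE 0.08, limma adjusted p = 0.0356). It lost the call when control replicates 1 or 3 (0.0918 and 0.0967) were left out, or Gata6 KO replicates 1, 2 or 3 (0.0940, 0.130 and 0.0828). Next came Tfb2m, Mfn1, Esrrg, Cs and Ppargc1b, at 0.31, 0.26, -0.55, -0.24 and 0.34, which did not pass.

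**Figure D4:**
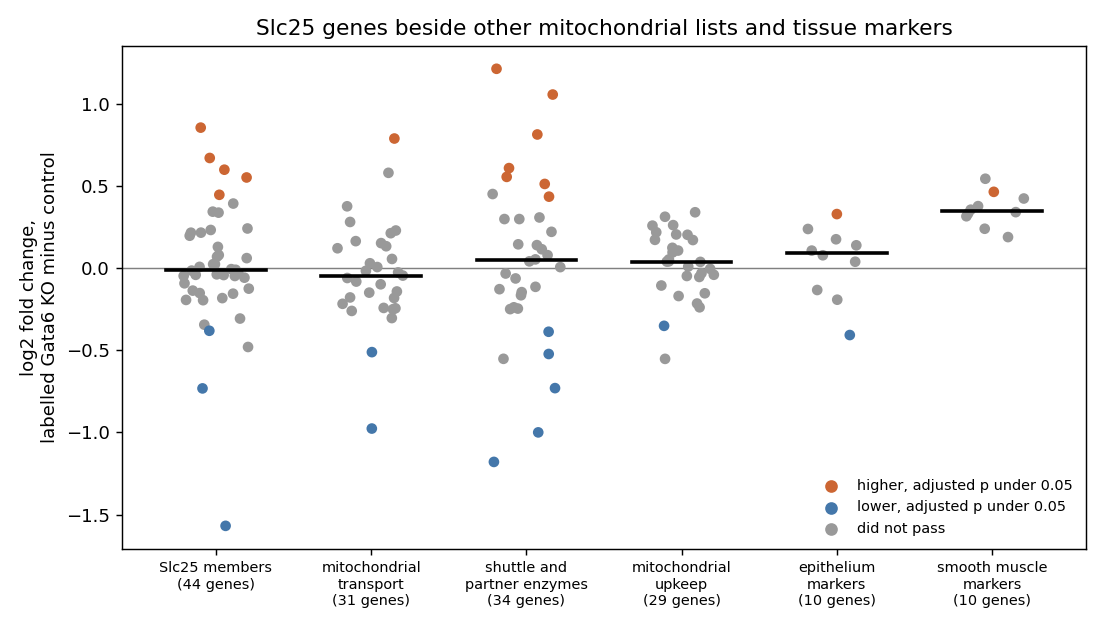
Log2 fold change of each gene, KO-labelled minus control, for the 44 carriers, 3 other mitochondrial lists and markers of epithelium and smooth muscle, with the median of each list as a black line. Medians were -0.01, -0.05, 0.05 and 0.04 for the mitochondrial lists in the order drawn, 0.09 for epithelium and 0.35 for smooth muscle.

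Markers of intestinal epithelium were present, while markers of ileum against other gut segments were not examined. All 10 of the epithelial list, Epcam and Vil1 included, had means above the array median. Vil1, an actin bundler of the brush border, fell by 0.41 (SE 0.08) and Krt19 rose by 0.33 (SE 0.07), and the median was 0.09. Vil1 lost the call when control replicate 3 (0.0732) was left out, or Gata6 KO replicates 1, 2 or 3 (0.0708, 0.0954 and 0.0607), and Krt19 whichever array was left out (0.0704 to 0.135). Their summed linear signal was 9777 to 10781 in the controls and 10173 to 11390 on the KO-labelled arrays. Leukocyte, endothelial and fat markers had no gene that passed in limma among 9, 6 and 6. Of these 1, 1 and 2 had an unadjusted p under 0.05, or 11.1%, 16.7% and 33.3%, beside 24.7% of all genes. Their medians were 0.13, 0.06 and 0.64. Of 6 markers of enteric neurons and glia 1, Prph, rose. Prph kept the call only without control replicate 1 (0.0490), of the fits that leave out an array, and was at 0.0579 to 0.0891 in the others. The summed linear signal of the fat markers was 120 to 278 in the controls and 264 to 315 on the KO-labelled arrays. Neither of 2 red cell genes nor any of 5 testis-type genes passed (1 and 0 at an unadjusted p under 0.05), and the latter all lay below the array median, as did Slc25a31. The part of these cells in the carriers' values was not tested.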

How the data were processed

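Whole ileum of 6 mice was measured, 1 array per mouse. Values deposited by the authors are log2 signals of probe sets. The submitters' processing notes name Affymetrix Expression Console. No source used here gives the background correction, normalization or summary method, and the range of values gave the log base. The table holds 35557 probe sets, of which 21789 carry 1 gene symbol, 1621 several (left out) and 12147 none. limma 3.58.1 in R 4.3.3 compared the groups for each of 19938 genes (lmFit, eBayes, Gata6 KO minus control, two-sided, Benjamini-Hochberg over all genes, threshold 0.05). Changes, SDs and SEs are on the log2 scale. Arrays were also simulated for the 19938 genes of this comparison, 5 times, with 200 genes changed and independent normal noise from the moderated variances. The fit recovered 41.8% of changes of 0.5, 97.2% of 1 and 100% of 2 on the log2 scale, and 6.02% of calls were false. No difference of sex or tissue makeup was simulated, and 1643 genes were called in the data. These rates are therefore not those of the calls reported here. Pairs of carriers were tested by exact permutation with scipy 1.17.1, and figures drawn with matplotlib 3.10.9. Members and lists were chosen with earlier results of these data known. Genes described in full were Gata6, carriers that passed, the 6 brightest, the 5 with the smallest p that did not pass, members of the pairs, and the 6 with the smallest p of each other list. Gclm, Gss, the malate-aspartate enzymes, the import proteins and single cell type markers fall outside this rule and were chosen after their values were seen. Alternatives covered array scaling, a filter on dim genes, other probe sets, the replicate number as a block, array weights, variance moderation, a smooth muscle covariate and leaving out each array. Proteins were not analysed here.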

Additional observations from a re-analysis of the deposited data

How the results depend on the processing

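Over 16 alternatives, the 8 carriers that passed kept their direction under each one. The filter on dim genes, the fit of every probe set, the intensity trend, no moderation and the block leave a fold change as it is. Direction could not turn in those. Nor could it with array weights or with 1 array left out, since the groups of these 8 carriers did not overlap. Of the 8, Slc25a40 alone has more than 1 probe set, so taking the mean of probe sets could not change the fold change of the others. All 8 stayed called under both other scalings, the filter on dim genes, both other choices of probe set, the intensity trend and array weights. No moderation left 1 carrier higher and 0 lower, and the smooth muscle covariate 0 and 0, and the cause was not tested. Leaving out 1 array gave 1 to 6 carriers higher and 1 to 2 lower, and without control replicate 3, the array with male signals, 3 and 1. The transport list gave 3 higher with centred arrays or above the median signal, 2 with quantile normalization or array weights, 0 without moderation or with the muscle covariate, and 1 to 2 when 1 array was left out; its lower count was 1 without moderation and 0 with the covariate. The partner enzymes gave 0 higher and 0 lower without moderation and with the covariate, 4 higher with the replicate number as a block, and 0 to 7 higher and 3 to 5 lower with 1 array left out. Upkeep genes gave 1 higher with centred arrays or above the median signal, and 0 lower with centred arrays, without moderation, with the block or the covariate (0 to 1 with 1 array left out). All genes gave 1562 higher with centred arrays, 168 higher and 106 lower without moderation, 50 and 56 with the covariate, and 320 to 806 and 277 to 597 with 1 array left out. Gata6 was 0.49 without moderation (limma adjusted p = 0.0695), 0.59 with the covariate (0.176) and 0.46 to 0.55 with 1 array left out.

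Same-numbered arrays deviated together at 0.04, -0.04 and 0.15, so the replicate number was not taken as a pairing. As a block it left 4 carriers higher and 2 lower, without Slc25a13 and Slc25a25, and not every array correlated best with its own number.

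Signs turned for 15 carriers, all with a fold change of at most 0.08 in size and none called. With centred arrays Slc25a1, Slc25a3, Slc25a11, Slc25a14, Slc25a21, Slc25a26, Slc25a33, Slc25a41 and Slc25a42 were at 0.019, 0.042, 0.027, 0.010, 0.047, 0.016, 0.051, 0.0093 and 0.015. With quantile normalization Slc25a14, Slc25a21, Slc25a33, Slc25a41, Slc25a43 and Slc25a46 were at 0.036, 0.032, 0.089, 0.044, 0.027 and -0.029, and the pair Slc25a14 and Slc25a30 at 0.015. With array weights Slc25a21 was at 0.0090. With the covariate Slc25a1, Slc25a3, Slc25a11, Slc25a14, Slc25a26, Slc25a33, Slc25a43 and Slc25a46 were at 0.034, 0.0057, 0.069, 0.058, 0.25, 0.10, 0.31 and -0.037. With 1 array left out Slc25a1 ran from -0.15 to 0.049, Slc25a2 from -0.029 to 0.17, Slc25a3 from -0.033 to 0.0023, Slc25a11 from -0.076 to 0.032, Slc25a14 from -0.13 to 0.094, Slc25a21 from -0.14 to 0.098, Slc25a26 from -0.13 to 0.018, Slc25a30 from -0.099 to 0.12, Slc25a33 from -0.062 to 0.094, Slc25a34 from -0.0092 to 0.17, Slc25a41 from -0.10 to 0.032, Slc25a42 from -0.13 to 0.034, Slc25a43 from -0.17 to 0.038 and Slc25a54 from -0.0023 to 0.015. The pair Slc25a23 and Slc25a24 ran from -0.031 to 0.25, and Slc25a14 and Slc25a30 from -0.19 to 0.0045.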
